A study of Mus musculus with 8 samples.

Results

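This report describes 169 protein-coding genes of mouse embryonic stem cells (ESCs) that carried several N6-methyladenosine (m6A) peaks in the list from solvent-treated (DMSO) cells and none in the list from cells treated with Dox. They were selected as the protein-coding genes with at least 3 peaks in the DMSO list and 0 peaks in the Dox list, a peak being counted for a gene when its exon blocks shared at least 1 base with the gene's exons on the same strand. Genes of the Kif, Cep, Zfp, Slc and Usp families and Wwp2 were set aside by the selection, which removed 22 genes that met the peak counts. Of 6214 coding genes with a peak in either list, 2730 had at least 3 DMSO peaks, and 2539 of these also had a Dox peak. The members were chosen by their measured DMSO and Dox peak counts, so these counts are a description and carry no test.

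The peaks came from methylated RNA immunoprecipitation sequencing of poly(A) RNA from ESCs labelled E14, which by the study's methods all carry a Dux transgene that doxycycline (Dox) induces and a tdTomato reporter under the Mervl promoter. Cells received either DMSO, the solvent control, or Dox for 24 h, and Dox induced Dux, whose product activates genes of the 2-cell embryo and turns part of the culture into 2-cell-like cells. Each treatment had 2 immunoprecipitated and 2 input libraries, so 8 libraries in 4 groups were collected. The deposited tables hold 1 combined peak list for each treatment, with 18895 DMSO peaks and 13001 Dox peaks, and no value per library. The spread between replicates could therefore not be measured, no test was made between treatments, and a loss of methylation, a lower RNA level and a lower sequencing depth cannot be told apart as sources of a missing peak.

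m6A is placed on adenosines of nascent mRNA by a methyltransferase complex, chiefly within the DRACH sequence context (D is A, G or U, R is A or G, H is A, C or U), of which GGAC is the most favoured core. In mammalian transcripts the mark is typical of long internal exons, of the region around the stop codon and of 3′UTRs, and the packaging of spliced junctions keeps short internal exons largely free of it. Reader proteins of the YTH family bind the mark and direct transcripts to decay, translation or nuclear processing, and in ESCs m6A is known for shortening the lifetime of pluripotency transcripts.

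Many peaks of these genes were single calls of 25 nt, the shortest length in the lists. The sequences below are given 5′ to 3′ on the strand of the transcript from the GRCm38 (mm10) assembly of RefSeq, with GGAC in capitals. The set holds the best-scoring 25-nt peak with GGAC of the genes named by rule that had one, followed by the other 25-nt peak of Ttn. The top peak of Stat3 and the 3 remaining 25-nt peaks of Srbd1 were added after their values were seen. They were chosen as high or closely spaced calls without GGAC, although each holds a DRACH match.
Stat3, chr11:100904913-100904937, minus strand, exon 8: ccaacatctgcctGGACcgtctgga
Srbd1, chr17:86136292-86136316, minus strand, exon 4: aagaaggaggagagcgaGGACagct
Ttn, chr2:76711692-76711716, minus strand, exon 341: atatcagGGACactttgccggaaga
Cspp1, chr1:10066500-10066524, plus strand, exon 7: cacacattcagagGGACcctggcta
Ttn, chr2:76755787-76755811, minus strand, exon 303: ataaaggttgttggcaagcctggca
Stat3, chr11:100905867-100905891, minus strand, exon 5: tgacagagaagcagcagatgttgga
Srbd1, chr17:86136392-86136416, minus strand, exon 4: aaggttgaaagttgatgaggaaacc
Srbd1, chr17:86136342-86136366, minus strand, exon 4: gaggcagtaatgtggagaccccctc
Srbd1, chr17:86136442-86136466, minus strand, exon 4: cttaaaactgcagcaaaaaagcaaa
The score deposited with each peak starts at 10 and is read here as −log10 of the peak's p-value, a scale inferred from its values because the lists carry no header. The scores were 12.8 and 14.9 for the 2 Stat3 peaks, 10.1 for Cspp1, and 10.1 and 10.7 for the 2 Ttn peaks. The 4 Srbd1 peaks scored between 10.1 and 11.4 and lay in 1 exon of 372 nt, each 25 nt from the next. All of these peaks fell in coding sequence.

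The labelled cell type was checked against its markers. All 8 ESC markers examined (Pou5f1, Sox2, Nanog, Esrrb, Klf4, Sall4, Zfp42 and Tfcp2l1) had peaks in both lists, and all 9 markers of 2-cell-like cells had Dox peaks, of which 3 (Zscan4c, Zscan4d and Zscan4f) also had DMSO peaks. The others were Duxf3, Usp17la, Tcstv1, Tcstv3, Zfp352 and Tdpoz3. Dox peaks of Duxf3, the annotated Dux gene, could not be separated from the Dux transgene and are no check of cell state. The longer 2-cell list below also includes Duxf3. In the longer gene lists, 15 of 16 pluripotency genes and 17 of 19 annotated 2-cell genes had a Dox peak, and 16 and 5 had a DMSO peak. Ttn, given as the marker of the set, encodes titin, the giant elastic protein of muscle sarcomeres, and is no marker of ESCs. Of 13001 Dox peaks, 12050 (92.7%, 95% Wilson interval 92.2 to 93.1) shared a base with a DMSO peak, so the Dox list was both shorter and largely contained in the DMSO list. All intervals given here cover counting error only.

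The members made up most of a small class. At least 3 DMSO peaks with 0 Dox peaks were found in 191 of the 6214 coding genes when the excepted symbols are included, which is 3.07%, and in 7.00% of the 2730 genes with at least 3 DMSO peaks. The reverse pattern, at least 3 Dox peaks and 0 DMSO peaks, was found in 19 of 1830 genes (1.04%). The share of genes without a Dox peak fell with the number of DMSO peaks. It was 42.5% (95% interval 40.4 to 44.7) of 1982 genes with 1 DMSO peak, 22.2% (20.04 to 24.5) of 1353 genes with 2 and 13.4% (11.3 to 15.7) of 920 genes with 3. With 5 or more DMSO peaks the share was 2.31% of 1256 genes. The members lay mostly at the low end of the count, with 115 at 3 peaks, 34 at 4, 17 at 5, 2 at 6 (Hmmr and Lats1) and 1, Ttn, at 20.

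**Figure D1:**
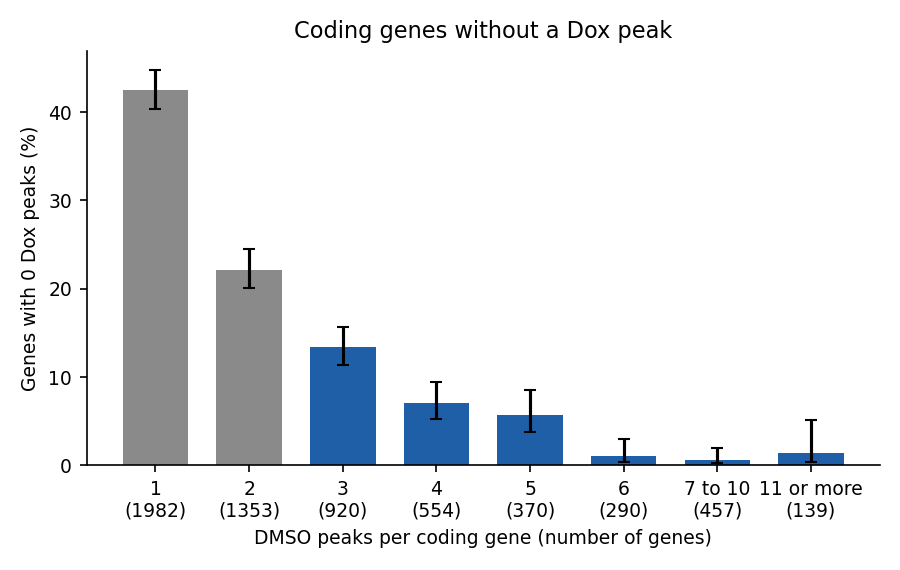
Share of coding genes with 0 Dox peaks (vertical axis, %) by number of DMSO peaks per gene (horizontal axis, with the number of genes in brackets). Whiskers are 95% Wilson intervals, blue bars are the counts of 3 or more that the selection used (excepted symbols included), and the share fell from 42.5% at 1 peak to 13.4% at 3 peaks.

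Genes just outside the selection had 1 Dox peak or 1 DMSO peak too few. Klhdc7a and Soga3 carried 10 DMSO peaks each and 1 Dox peak, and Arhgef1 carried 9 and 1. Cenpe, a kinetochore motor, and Ash1l, a histone methyltransferase, each had 8 DMSO peaks and 1 Dox peak, the latter scoring 11.7 and 10.3. On the other side of the threshold 300 genes had 2 DMSO peaks and 0 Dox peaks, among them Btaf1 with a best score of 20.1 and Homer3 with 18.4. The best scores of the members had a median of 11.8 (quartiles 11.2 and 12.6), whereas those of the 2539 genes with Dox peaks had a median of 13.9 (12.5 and 16.8). A best score is taken over all peaks of a gene, and genes with Dox peaks carry more of them. At exactly 3 DMSO peaks the median was 11.7 in members and 13.1 in genes with Dox peaks. With 3 DMSO peaks and exactly 1 Dox peak it was 12.6. Because a low score in one list is the kind of peak that another list can lack, these differences were not tested.

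Ttn (chr2:76703980-76982547, minus strand) held 20 of the 596 distinct member peaks. Its peaks were 25 to 350 nt long with a median of 100 nt, and scored from 10.1 to 14.3 with a median of 10.99. Of the 20 peaks, 19 could be placed on the main transcript of 106824 nt, all in coding sequence and none within 200 nt of the stop codon. Their middle bases lay between positions 53718 and 104662 of that transcript, so none lay nearer to its start. The exon of 17106 nt, the longest of the gene's 347 exons, held 5 of them, the exon of 2967 nt and that of 5437 nt held 4 each, and the best-scoring peak (14.3, 250 nt, with 2 GGAC) lay in the exon of 2967 nt. GGAC was present in 13 of the 20 peaks (65.0%), and 18 of the 19 placed peaks (94.7%) were in exons of at least 400 nt. Of the 16 sarcomere genes examined, only Ttn and Obsl1, a cytoskeletal adaptor, had a DMSO peak, and Obsl1 had 4 DMSO peaks and 1 Dox peak.

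**Figure D2:**
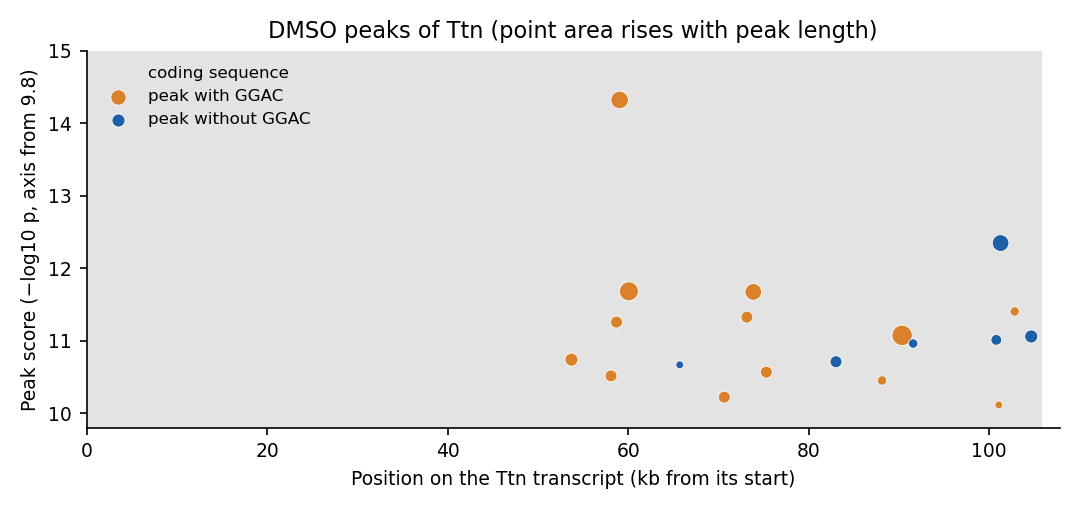
The 19 DMSO peaks of Ttn that lie on its main transcript, by position (horizontal axis, kb from the transcript's start) and score (vertical axis, −log10 p, not starting at 0), with point area rising with peak length, orange for peaks with GGAC, blue for those without and a grey field for coding sequence. All points lie between positions 53718 and 104662 nt, and the highest scores 14.3.

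Hmmr, a receptor for hyaluronan that also binds the mitotic spindle, carried 6 coding peaks scoring 10.04 to 12.99. Of these, 1 peak of 250 nt held 4 GGAC and the other 5 held none. Lats1, the Hippo pathway kinase that restrains Yap1, also carried 6 coding peaks, which scored 10.4 to 11.7, and 4 of them lay in a single internal exon of 1511 nt. Of 9 genes of the Hippo pathway with at least 3 DMSO peaks, Lats1 alone had 0 Dox peaks, which is 1 of 9 beside the 7.00% of all coding genes with that many DMSO peaks, and Yap1 had 5 peaks in each list. This list of 21 Hippo genes was chosen after the members were known and supports nothing beyond its counts.

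Among the members with 5 peaks, Stat3, the transcription factor through which LIF maintains ESC self-renewal, had peaks scoring 14.9, 12.8, 10.9, 10.8 and 10.5. The highest lay in an exon of 96 nt and held no GGAC. Its relative Stat6 had 3 short peaks of 10.5 to 10.9 in the 3′UTR and 0 Dox peaks, while Stat2 had 7 DMSO and 4 Dox peaks, so that 2 of the 3 STAT genes with at least 3 DMSO peaks were members, against 7.00% of all coding genes with that many that had no Dox peak. The STAT list was gathered after the members had been seen and supports nothing beyond its counts. Pmpca, the alpha subunit of the mitochondrial processing peptidase, had its best peak (14.6, 50 nt) in the short exon 6 and none of its 5 peaks held GGAC. Stx4a, a SNARE protein of the plasma membrane, had 5 peaks of 25 to 75 nt spread over 4 consecutive exons of 71 to 109 nt, scoring 10.3 to 12.3. Snx5, a sorting nexin of endosomes, showed the same layout, with 4 of its 5 peaks in exons 10 to 12 and a best score of 12.3.

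Others had peaks near the stop codon or in long exons, and distances below are from the first base of the stop codon to the middle of the peak, negative before it. Clcn3, an endosomal chloride/proton exchanger, carried its best peak (13.9, 125 nt, 1 GGAC) at −632 nt and another at −32 nt. Klhl42, a Cul3 adaptor of the kelch family, had 3 of its 5 peaks in the final exon of 5084 nt, at −252, −14 and 73 nt. Sh3tc1, which has SH3 and TPR domains, carried the longest member peak, of 525 nt with 5 GGAC and a score of 11.4, in an exon of 1680 nt. Smpd2, a neutral sphingomyelinase, had 3 of its 5 peaks, including the best (14.1), outside its main transcript. Within the span of Smpd2 there were also DMSO peaks on the opposite strand, as in 5 other members (Cbarp, Ncapg, Prr3, Trmt13 and Xab2). These 6 of 169 members had 9 such DMSO peaks and 0 such Dox peaks. Of the 2539 genes with at least 3 DMSO peaks and a Dox peak, 186 had such DMSO peaks. Among those 186 genes, 141 also had such Dox peaks. The part of the 6 members in the result was not tested.

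The highest single scores belonged to genes with 3 or 4 peaks. Xpo1, the main nuclear export receptor for proteins, scored 22.5 and 18.7 in the short coding exons 3 and 4 (102 and 73 nt) and 12.3 in the 5′UTR. Cbx3, a heterochromatin protein that reads methylated histone H3, scored 18.1, 21.6 and 20.4 in its first 3 exons, and these peaks adjoined each other on the transcript. The third of them, of 175 nt, had near-identical loci elsewhere in the genome, and without such peaks Cbx3, Prr3 and Abcb1b no longer had 3 peaks. Xpo1 and Cbx3 were the only members with a score of at least 20. Taf1, the largest subunit of TFIID, reached 17.5 across exon 27 and had 1 or more GGAC in each of its 3 peaks. Rnf214 (17.3), Parp2 (16.3), Snrnp48 (15.7) and Tbrg1 (15.0) had their best peaks in coding exons of 140, 76, 122 and 137 nt. Parp2 is a poly(ADP-ribose) polymerase of DNA repair and Snrnp48 a protein of the minor spliceosome, and neither of their best peaks held GGAC. Prr3 reached 16.0 in its 5′UTR.

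**Figure D3:**
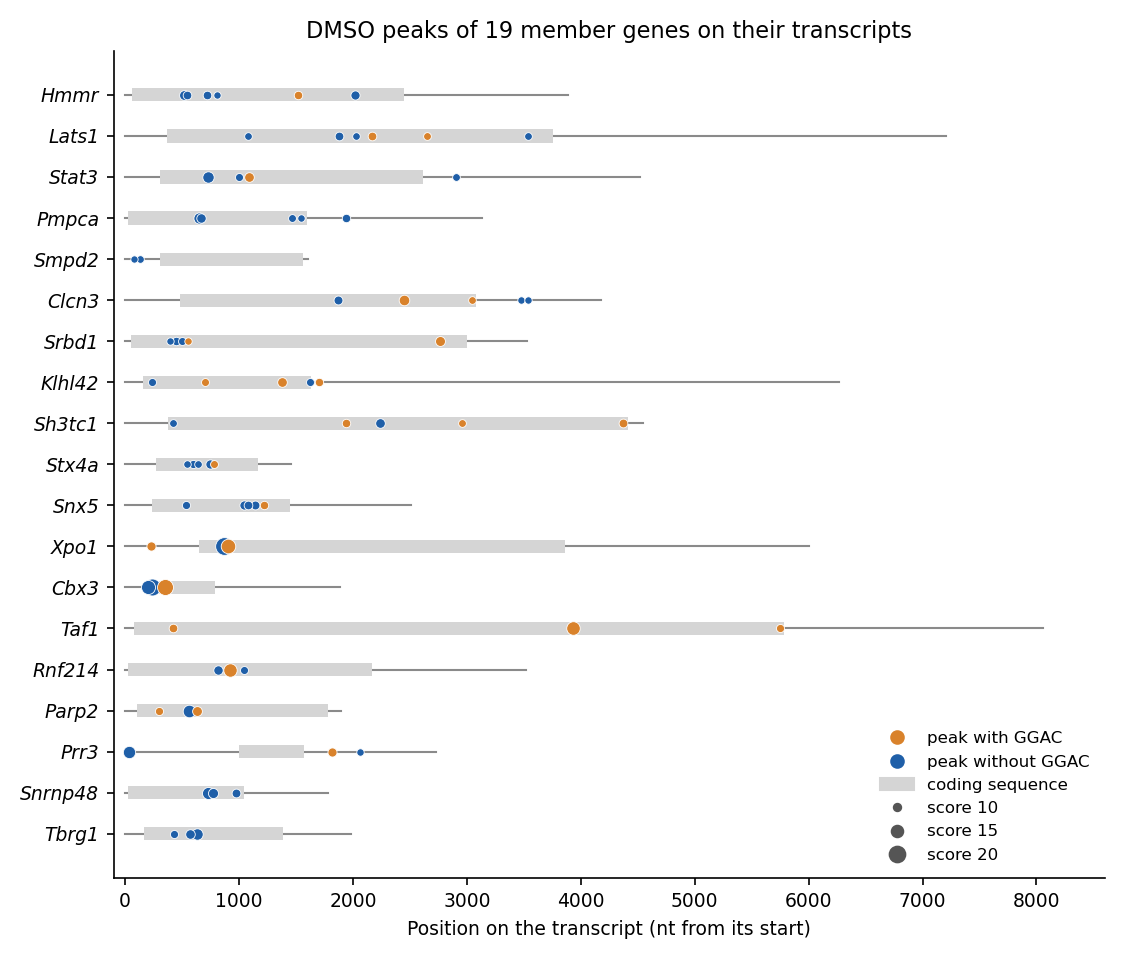
DMSO peaks of 19 members on their main transcripts (horizontal axis, nt from the transcript's start): the genes with most peaks other than Ttn, then those with the best scores. Grey boxes are coding sequence, point size rises with score (−log10 p), orange marks peaks with GGAC, 5 peaks off the transcript (3 of Smpd2, 1 each of Stat3 and Tbrg1) are not drawn, and the peaks of Cbx3, Stx4a and Snrnp48 sit close together, whereas those of Lats1, Clcn3 and Taf1 are spread out.

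Across all members the peaks were short and close to the reporting limit. Their median length was 50 nt (quartiles 25 and 100) and their median score 10.96 (10.5 and 11.6), and 198 of 596 (33.2%, 95% interval 29.6 to 37.1) were 25 nt long. DMSO-only peaks of genes with Dox peaks had medians of 50 nt and 11.1 and 35.1% (33.8 to 36.4) of these 5313 peaks were 25 nt long. DMSO peaks that were overlapped by a Dox peak in those genes had medians of 200 nt and 12.3, and 4.13% (3.72 to 4.59) of 8084 were 25 nt long. The best score was under 12 in 102 members and under 11 in 21, and every peak was at most 50 nt long in 27 members.

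The position of the peaks was not used by the selection. Of 576 member peaks placed on the main transcript, 429 (74.5%, 70.8 to 77.9) were in coding sequence, 127 (22.05%, 18.9 to 25.6) in the 3′UTR and 20 (3.47%, 2.26 to 5.30) in the 5′UTR. The coding share was 76.3% (75.1 to 77.5) among DMSO-only peaks of genes with Dox peaks. Near the stop codon, within 200 nt, lay 21.01% (17.9 to 24.5) of member peaks, 11.1% (10.3 to 12.01) of those DMSO-only peaks and 38.4% (35.9 to 41.1) of the peaks of genes with 1 or 2 DMSO and 0 Dox peaks. Exons of at least 400 nt held 61.6% (57.6 to 65.5) of member peaks and 50.6% (49.2 to 52.0) of the DMSO-only peaks of genes with Dox peaks. For both the stop codon and the long exons, the member share was close to that of DMSO peaks overlapped by a Dox peak, at 19.5% (18.6 to 20.4) and 64.0% (62.9 to 65.1). The DMSO peaks of genes with Dox peaks are split here by Dox overlap, whereas member peaks are not. The share over all DMSO peaks of those genes lies between the shares of the DMSO-only and the overlapped peaks. Those genes also carry more peaks each, and the shares were not matched for peak number. Peaks of 1 gene share their RNA, so these intervals are too narrow, and no test was made.

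By gene, all peaks fell in coding sequence in 77 members and in the 3′UTR in 12, among them Stat6, Insig1, which holds sterol sensors in the endoplasmic reticulum, and Flcn, the folliculin tumour suppressor. Both coding and 3′UTR peaks were found in 58 members, and 84 had a peak within 200 nt of the stop codon. Mars2, a mitochondrial methionyl-tRNA synthetase encoded in a single exon, had its 3 peaks at −171, −84 and −9 nt from the stop codon. Elavl1, which binds AU-rich 3′UTRs, had its best peak (14.4, 25 nt) at −17 nt from it.

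GGAC was searched on the strand of the peak within its exon blocks. It was present in 221 of 596 member peaks (37.1%, 33.3 to 41.0) and in at least 1 peak of 131 members, and 38 members had none. The share was 31.2% (30.0 to 32.5) in DMSO-only peaks of genes with Dox peaks and 68.2% (67.1 to 69.2) in peaks overlapped by a Dox peak. Longer peaks held the motif more often. In peaks of 25 nt the share was 18.2% (13.4 to 24.1) for members, 12.9% (11.4 to 14.5) for DMSO-only and 16.2% (12.6 to 20.5) for overlapped peaks. In peaks of 26 to 50 nt it was 26.98% (19.9998 to 35.3), 24.8% (22.2 to 27.5) and 24.2% (20.1 to 28.8). In peaks of 51 to 150 nt it was 51.6% (45.0 to 58.0), 44.5% (42.4 to 46.7) and 51.3% (49.2 to 53.4). In longer peaks it was 73.5% (59.7 to 83.8), 63.2% (58.6 to 67.6) and 81.9% (80.8 to 82.9). The member share was above the DMSO-only share in each of the 4 classes, and their intervals overlapped in each. A DRACH match, which includes most GGAC, was present in 76.2% (72.6 to 79.4) of member peaks.

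**Figure D4:**
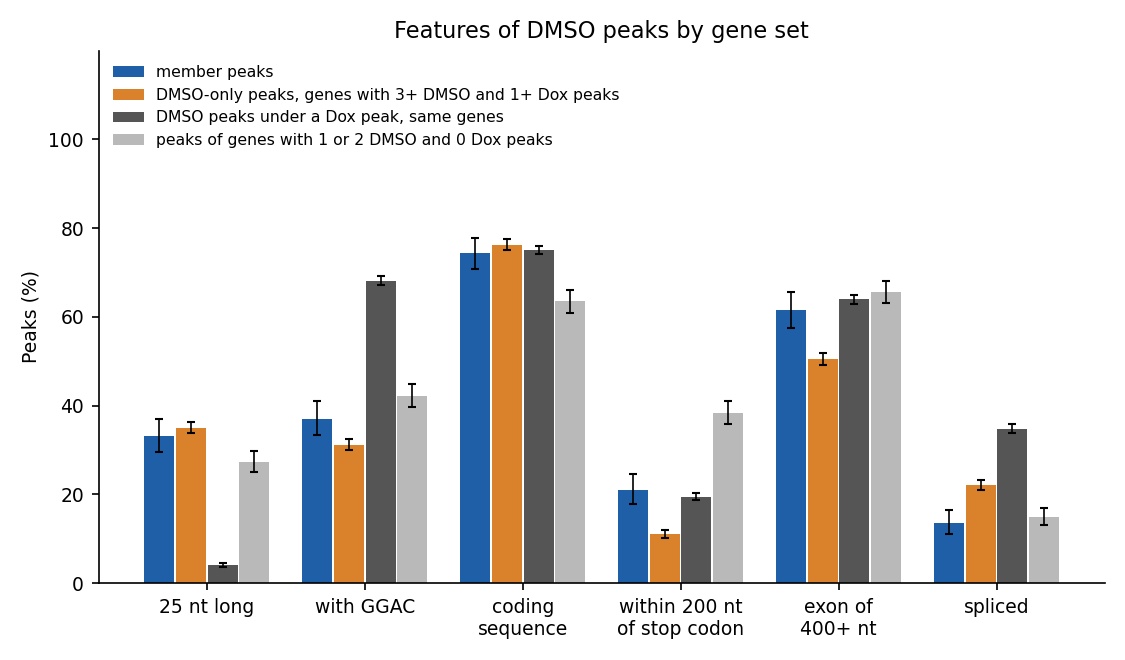
Share of DMSO peaks (vertical axis, %) with each of 6 features in 4 sets: member peaks (blue), DMSO-only peaks of genes with 3 or more DMSO and 1 or more Dox peaks (orange), peaks under a Dox peak in those genes (dark grey) and peaks of genes with 1 or 2 DMSO and 0 Dox peaks (light grey). Whiskers are 95% Wilson intervals, and member peaks near the stop codon (21.01%) stand between the orange (11.1%) and light grey (38.4%) sets.

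Neighbouring peaks of a member were often close. Of 410 pairs of neighbours on the main transcript, 114 (27.8%, 23.7 to 32.3) were at most 25 nt apart and 190 (46.3%, 41.6 to 51.2) at most 150 nt, against 24.9% (24.1 to 25.7) and 50.5% (49.6 to 51.5) of 10493 pairs in genes with Dox peaks. A peak whose middle base lay off the main transcript was never joined and counted as its own region, so counts of regions can be too high. When peaks at most 150 nt apart were joined, 73 of 169 members (43.2%, 36.0 to 50.7) kept at least 3 regions, 66 had 2 and 30 had 1. The corresponding share with at least 3 regions was 61.9% (60.0 to 63.7) of the 2539 genes with Dox peaks, which carry more peaks each. Ttn kept 19 regions and Lats1 4, whereas the 5 peaks of Stx4a, the 3 of Cbx3 and the 3 of Ncapg, a condensin subunit, each became 1 region. Srbd1, an RNA-binding protein of the S1 family, had 2 regions.

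**Figure D5:**
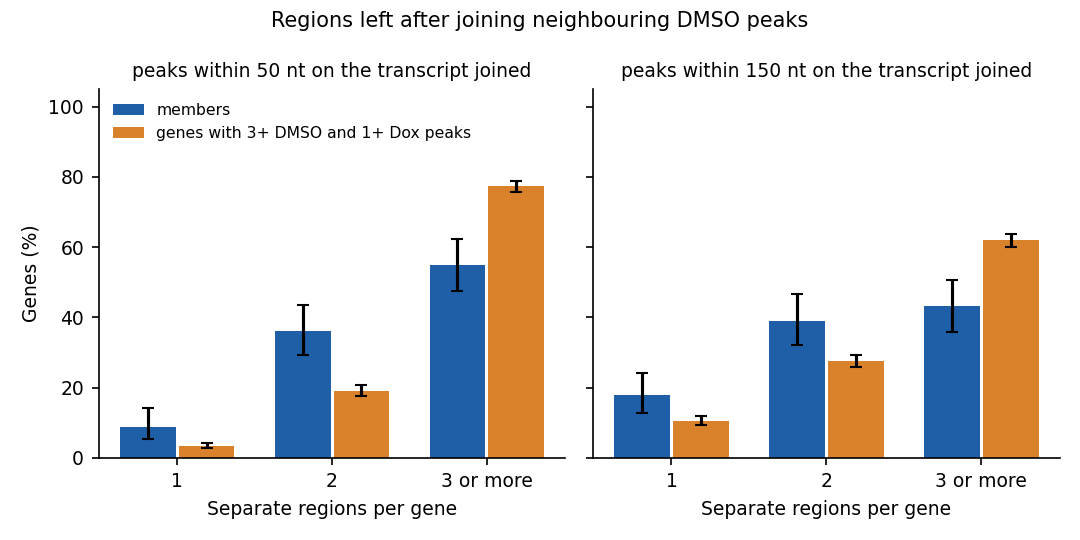
Share of genes (vertical axis, %) with 1, 2 or at least 3 separate regions after DMSO peaks at most 50 nt (left) or 150 nt (right) apart on the main transcript were joined, for members (blue) and genes with 3 or more DMSO and 1 or more Dox peaks (orange). Peaks off the main transcript were not joined and count as separate regions. Whiskers are 95% Wilson intervals, and with 150 nt 43.2% of members and 61.9% of the other genes kept at least 3 regions.

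The median exonic length of members was 5823 nt (quartiles 4298 and 8318), against 5842 nt (3949 and 8666) in genes with Dox peaks. At exactly 3 DMSO peaks it was 6033 nt in 115 members and 4729 nt in 797 genes with Dox peaks. In the 219 genes with 3 DMSO peaks and exactly 1 Dox peak it was 5489 nt. These differences were not tested. Members had a median of 0.563 DMSO peaks per kb of exon against 0.844, a measure that rests on the peak count used by the selection. At exactly 3 DMSO peaks the medians were 0.497 in members and 0.634 in genes with Dox peaks. With 3 DMSO peaks and exactly 1 Dox peak the median was 0.547. The GC content of the main transcript had a median of 48.2% (44.9 and 53.7) in members and 50.9% (46.8 and 55.2) in genes with Dox peaks. A near-identical second locus in the genome was found for 43 of 596 member peaks (7.21%, 5.40 to 9.58), in 22 members, including all 4 peaks of the ribosomal protein gene Rpl6. It was found for 6.399% (5.77 to 7.09) of the DMSO-only peaks of genes with Dox peaks. In 4 members (Gm20390, Ndor1, Hyal1 and Gm37988) a peak also lay on exons of an annotated gene outside the set. Besides these, 2 peaks were counted for both of the members Nme1 and Gm20390, the latter joining transcripts of Nme1 to those of Nme2.

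Gene lists chosen with earlier results known gave the following counts. Beside them stands the 7.00% of genes with at least 3 DMSO peaks that had no Dox peak. That share was 13.4% at exactly 3 DMSO peaks and 2.31% at 5 or more. The lists were not matched for peak count, so a difference from 7.00% was not read as a property of a list. In DNA repair, 5 of 20 such genes had no Dox peak: Etaa1, an activator of the ATR kinase; Rev3l, the catalytic subunit of translesion polymerase zeta; Topbp1, a scaffold for ATR activation; Ercc6, of transcription-coupled repair; and Lig4, the end-joining ligase. Etaa1 had 5 peaks, all in its exon of 1961 nt, scoring 10.3 to 11.3, and Rev3l had 4 peaks of 10.7 to 12.5, of which 3 lay in its exon of 4153 nt. Of these, 1 Etaa1 peak (10.7) had a near-identical second locus. Topbp1 reached 13.5 in an exon of 221 nt. The best scores of Ercc6 and Lig4 were 11.02 and 10.9. The other 15 repair genes kept Dox peaks, among them Brca1 with 10 DMSO and 8 Dox peaks.

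Of centrosome and cilium genes, 3 of 13 had no Dox peak, namely Stil, which drives centriole duplication, with 4 peaks of 10.4 to 11.2, Cspp1, of the ciliary axoneme, with 3 of 10.1 to 11.7, and Wdr35, an intraflagellar transport protein, with 3 of 10.4 to 11.6. Akap9 and Pcm1, which also serve the centrosome, had 6 DMSO peaks and 1 Dox peak each. Of dynein and myosin motors, 1 of 8 had none: Dnah8, an axonemal dynein heavy chain, had 4 coding peaks of 11.1 to 12.5 without GGAC, while Dync1h1, the cytoplasmic dynein heavy chain, had 18 DMSO and 10 Dox peaks.

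A single member came from 6 further lists. These were Ncapg of 21 mitosis genes (3 peaks of 10.7 to 10.8 in consecutive short exons), Rab3gap1, a Rab GTPase-activating subunit, of 14 trafficking genes (10.2 to 11.5), Pik3r1, the regulatory subunit of phosphoinositide 3-kinase, of 10 lipid kinase genes (10.6 to 11.2), Ago1, an Argonaute protein, of 26 RNA decay genes (10.1 to 11.8), Abcb1b, a drug efflux pump, of 8 transport genes (10.9 to 11.6), and Rapgef2, an activator of Rap, of 17 GTPase regulators (10.4 to 11.3). Chromatin regulators gave 2 of 54, the histone demethylase Kdm4c (4 peaks, 10.1 to 12.3) and the methylcytosine dioxygenase Tet3 (3 peaks, 10.2 to 11.3). None of 12 giant cytoskeletal linkers, 20 ubiquitin ligases, 12 matrix and adhesion genes, 9 pluripotency genes and 4 genes of the 2-cell list with at least 3 DMSO peaks lacked a Dox peak, by count and without a test. Apart from Tln2 with 3, these linkers had from 6 (Tln1) to 51 (Dst) DMSO peaks. Of all coding genes with 5 or more DMSO peaks, only 2.31% lacked a Dox peak.

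Further families were tabulated after the members had been seen. Of all coding genes with at least 3 DMSO peaks, 7.00% had no Dox peak. Of those with exactly 3 DMSO peaks, the share was 13.4%. Of 9 genes of the ELAVL, CELF, MBNL, FMR and FUBP families of RNA-binding proteins with at least 3 DMSO peaks, 5 were members: Elavl1, Celf1, Mbnl2, Fmr1 and Fubp1. Fmr1, the fragile X protein, had 5 coding peaks with a best score of 12.2, while its relatives Fxr1 and Fxr2 had 4 and 3 DMSO peaks and 1 and 2 Dox peaks. Of 6 such genes of the NF-kB pathway, 4 were members: the kinases Ikbkb (5 peaks, best 11.7) and Ripk1 (3, best 11.2) and the adaptors Tab3 (3, best 10.7) and Traf3ip2 (5, best 10.7). Tab2, close to Tab3 in function, had 6 peaks in each list. Of 15 such aminoacyl-tRNA synthetases, 3 were members (Iars, Farsb and Mars2), with best scores of 13.1, 13.9 and 11.95, and of 8 such nuclear transport receptors, 2 were members (Xpo1 and Xpot). Of 4 such mitochondrial ribosomal protein genes, 2 were members (Mrpl49 and Mrpl50). Since these families were gathered around known members, their shares hold no evidence of enrichment.

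Of the alternatives tried, equal list sizes left the fewest members. When the DMSO list was cut to its 13001 best-scoring peaks, as many as the Dox list holds, 27 of the 169 members still had at least 3 peaks. The corresponding count for genes with Dox peaks is not given here, so the loss was not read as particular to the members. Of the 36 genes described by rule, these included 12: Ttn, Hmmr, Pmpca, Smpd2, Sh3tc1, Snx5, Xpo1, Cbx3, Snrnp48, Tbrg1, Dnah8 and Rev3l. Lats1, Stat3, Clcn3 and all repair genes named above other than Rev3l were not among them.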

How the data were processed

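Reads were filtered with fastp 0.19.4 and aligned to mm10 with HISAT2 2.2.1 by the authors, who called peaks with exomePeak2 (version, settings and the handling of replicates not given in the sources used here). The deposited score of each peak was read as −log10 of its p-value for immunoprecipitated over input RNA, a unit inferred from the values since the lists have no header. It was used as given, and no counts per library were analysed, so depth is unknown. Members and gene lists were chosen with earlier results of these data known. Peaks were assigned to GENCODE vM21 exons in Python 3.11.15 (numpy 2.4.6, scipy 1.17.1, matplotlib 3.10.9), and all 188 inner block edges of member peaks matched annotated exon edges. A peak was placed by its middle base on the transcript with the longest coding sequence. Near-identical loci (at least 90% of the peak at 98% identity) came from blastn 2.17.0. Sequences were read from RefSeq GRCm38. The assignment was also run on simulated peaks, which checks the code only, and the outcome is not given here. Genes named by rule were the 12 members with most peaks, the 8 further members with the best score and up to 4 members per gene list; Lig4, and genes named as neighbours, in added families or for position, were chosen after their values were seen.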

Additional observations from a re-analysis of the deposited data

How the results depend on the processing

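Of 89 recomputed values of 9 results, 60 stayed within their 95% interval, or within 1.5 times for counts, and 29 moved. With a score of at least 11 in both lists there were 102 members, of which 33 were among the 169, with 351 peaks, a coding share of 80.9%, a stop codon share of 17.0%, a GGAC share of 48.4%, and a median score of 11.8 and length of 100 nt. With equal list sizes there were 27 members with 91 peaks, and these values were 81.6%, 17.2%, 32.97%, 11.8 and 75 nt, with 47.1% in long exons. With peaks of at least 50 nt there were 106 members, 70 of them among the 169, with 387 peaks, a stop codon share of 17.4%, a GGAC share of 47.0%, 65.8% in long exons, a median score of 11.1 and a length of 100 nt. At least 4 peaks left 54 members with 253 peaks. A window of 400 nt gave a stop codon share of 32.3%, DRACH in place of GGAC 76.2%, and exons of at least 200 nt 72.4%. Joining peaks within 150 or 50 nt, chosen after seeing the data, left 73 or 93 members, with peaks off the main transcript not joined. Ignoring strand (190 members), assigning each peak to 1 gene (169), at least 50% of a peak in exons (168), leaving out peaks with a near-identical locus (152) and the whole-span criterion (169) moved none of the 9 results, although 148 of the 152 members left without near-identical peaks were among the 169 and Cbx3, Prr3 and Abcb1b were not, and the longest transcript moved none of the 3 shares it was applied to. The cause of these changes was not tested, apart from those that follow from fewer or longer peaks being admitted. No paired analysis was possible because the replicates of a treatment were already combined in its peak list, and for the same reason no replicate could be left out.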
